A study of Mus musculus with 12 samples.

Results

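The 10 genes described here are the Sprouty genes Spry1, Spry2 and Spry4, the related gene Spred1, the phosphatase gene Dusp6, the transcription factor genes Etv1, Etv4 and Etv5, and the receptor genes Fgfr1 and Fgfr3. They are 10 of the 55335 genes counted in bulk RNA-seq of E13.5 mouse cortex, and all 10 passed the filter on low counts. They were chosen by name as genes of fibroblast growth factor (FGF) feedback and as its receptors. The set was also selected on Spry4, whose level was higher in the libraries labelled KO, so the KO values of Spry4 are a description with no test.

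The libraries came from Med13L KO, Med13L Het and Med13L WT embryos of crosses between heterozygous mice, with 3 libraries of each genotype. Med13l makes one of the proteins of Mediator, a large coactivator of transcription. The labels give no deleted exon, strain, sex or number of embryos per library, and do not say whether replicates share a litter. The tests treat the libraries as independent, which cannot be checked here, and their p-values rest only on the variation among these libraries. Pooled single-cell samples of the same genotypes were not analysed here.

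FGFs bind receptor tyrosine kinases on the cell surface and activate the RAS-ERK kinase cascade. ERK activity switches on Etv1, Etv4 and Etv5, which act in the nucleus, and also the inhibitors of the cascade. Sprouty and Spred proteins act between receptor and RAF, and DUSP6 removes the activating phosphates of ERK in the cytoplasm, so the level of these transcripts is often used as a readout of FGF signalling. In the embryonic forebrain, FGFs secreted at the anterior midline pattern the cortex along its front-to-back axis, and FGF receptors act in radial glia, the progenitors of cortical neurons.

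The genes lie on 10 different chromosomes. In GRCm38 coordinates from GENCODE M21, Spry1 spans chr3:37639947-37644598, Spry2 chr14:105891947-105896819 and Spred1 chr2:117121374-117182279. Dusp6 spans chr10:99263231-99267489, Etv1 chr12:38779380-38870484, Etv4 chr11:101769742-101785371 and Etv5 chr16:22381309-22439719. Fgfr1 spans chr8:25513654-25575718, and Fgfr3 chr5:33721674-33737068, on the chromosome that also carries Med13l (chr5:118560679-118765438). Whether reads were counted by strand is not given in the sources used here. Exons of genes on the opposite strand share 24.4% of the exonic bases of Spry1, 13.9% of those of Fgfr3 and 1.7% of those of Fgfr1, and reads there cannot be assigned to one gene without strand.

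RefSeq start-site windows (GRCm38.p6, 250 bases before to 50 after each start) were matched by symbol for 7 of the 10 genes, with 10 windows in all. Spry4, Etv4 and Fgfr1 were not matched. The windows of Spry1, Spry2 and Dusp6 are shown because Spry1 and Spry2 had the closest levels across libraries, and Dusp6 because its window holds an Etv-family motif. Capitals mark the letters AGGAAG, the core bound by factors of the Etv4 (PEA3) family, read on either strand.
Spry1, plus strand, chr3:37639697-37639996: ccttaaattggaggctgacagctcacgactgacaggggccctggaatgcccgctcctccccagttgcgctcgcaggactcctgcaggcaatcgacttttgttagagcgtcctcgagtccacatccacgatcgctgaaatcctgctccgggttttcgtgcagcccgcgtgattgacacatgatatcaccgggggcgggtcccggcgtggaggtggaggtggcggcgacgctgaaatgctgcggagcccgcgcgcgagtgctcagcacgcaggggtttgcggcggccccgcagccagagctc
Spry2, minus strand, chr14:105896770-105897069: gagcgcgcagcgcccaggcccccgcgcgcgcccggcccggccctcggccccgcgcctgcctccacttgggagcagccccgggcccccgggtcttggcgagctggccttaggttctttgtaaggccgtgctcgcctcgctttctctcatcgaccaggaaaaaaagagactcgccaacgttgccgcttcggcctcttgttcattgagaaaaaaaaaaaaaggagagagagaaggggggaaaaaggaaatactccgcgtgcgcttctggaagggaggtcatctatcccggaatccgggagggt
Dusp6, plus strand, chr10:99262981-99263280: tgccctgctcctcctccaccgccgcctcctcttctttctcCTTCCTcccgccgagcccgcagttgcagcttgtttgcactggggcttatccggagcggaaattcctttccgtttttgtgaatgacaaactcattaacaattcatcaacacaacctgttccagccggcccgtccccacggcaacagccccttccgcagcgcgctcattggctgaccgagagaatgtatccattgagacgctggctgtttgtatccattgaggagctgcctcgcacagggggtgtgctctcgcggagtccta
The Spry1 and Spry2 windows were both rich in G and C, at 64.3% and 62.7%, with 29 and 28 CpG dinucleotides. The Dusp6 window held 57.3% G and C with 19 CpG, and the median over the 32851 RefSeq windows was 52.7% with 7 CpG. The letters AGGAAG stood in 3 of the 10 windows, 1 each of Dusp6, Etv1 and Etv5, and in 35.4% of all windows of the same length. On either strand, the ETS letters CCGGAAG were in 8.86% of all windows, the cyclic AMP element TGACGTCA in 1.79% and the AP-1 letters TGANTCA in 7.81%, and none of these 3 was in the 10 windows. A match is a description of the letters, not of binding.

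The libraries held 37909377 to 52992392 counts. Med13l itself, counted over the whole gene, stood at 130 to 163.1 CPM (read counts scaled to a common library size) in KO, 141 to 160.2 CPM in Het and 116 to 146 CPM in WT libraries, so its count does not check the labels. The library Het 1 stood apart: 12 tested genes of the thalamus and diencephalon summed to 1753 CPM there, against 507 to 582 CPM in the other 5 KO and Het libraries and 466 to 516 CPM in WT, and 7 cortex markers summed to 708 CPM, against 1529 to 2474 CPM in the other 8 libraries. Results on Het are therefore given with and without it. The 12 markers of the ganglionic eminence, the ventral forebrain next to the cortex, also varied between libraries and summed to 73.6, 577 and 325 CPM in KO, 262, 68.3 and 520.3 CPM in Het, and 238, 242 and 323 CPM in WT libraries 1, 2 and 3. In bulk tissue, fewer cells of a type and less RNA per cell cannot be told apart.

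**Figure D1:**
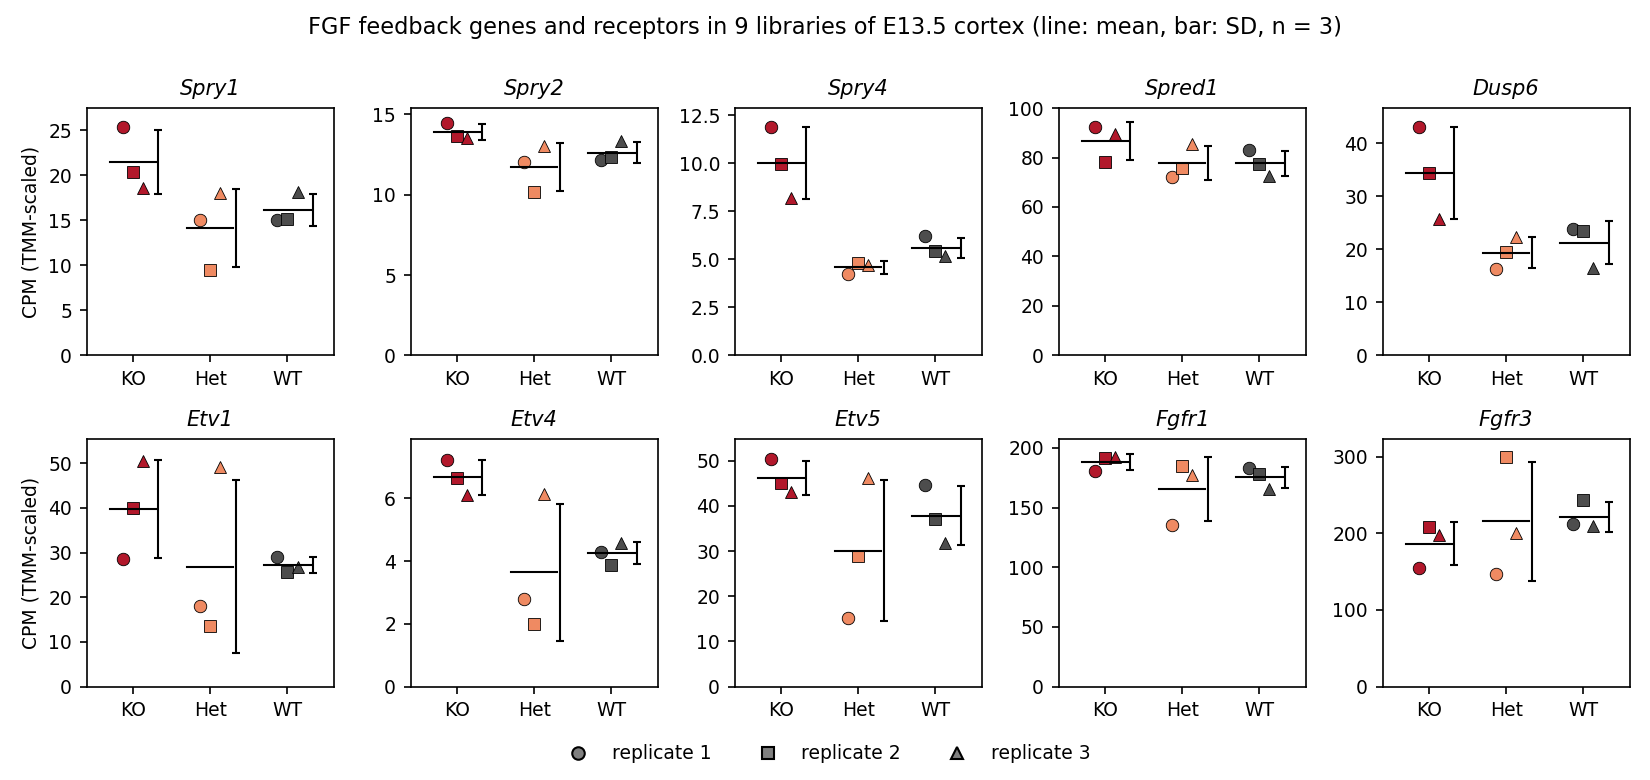
Levels of the 10 genes in each library, as CPM scaled by TMM factors, with KO, Het and WT side by side. Points are libraries, the line is the mean and the bar the SD of 3 libraries. Spry4 in KO spans 8.21 to 11.9 CPM, above every Het and WT library, while Etv1, Etv4 and Etv5 spread most among the 3 Het libraries.

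Set against exon length, the receptors were the most abundant and Spry4 the least. In WT cortex Fgfr3 stood at 30.9 ± 2.69 CPM per kb of exon (SD, n = 3, as for the values that follow), Fgfr1 at 17.8 ± 0.89, Spred1 at 11.4 ± 0.77 and Etv5 at 9.22 ± 1.58 CPM per kb. Dusp6 followed at 6.80 ± 1.32, Spry2 at 6.04 ± 0.31, Spry1 at 5.55 ± 0.61, Etv1 at 2.05 ± 0.13, Etv4 at 1.37 ± 0.11 and Spry4 at 1.18 ± 0.11 CPM per kb. Within this order the WT libraries of Spred1 and Etv5 overlapped, as did those of Dusp6, Spry2 and Spry1, and those of Etv4 and Spry4. The lowest count behind any value was 86, for Etv4 in Het 2, and Fgfr3 reached 12952 counts in the same library.

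Compared with WT, KO cortex had higher levels of most feedback genes by the fitted fold change, led by Dusp6 and Etv4 beside Spry4. Of the receptors, Fgfr1 was close to WT and Fgfr3 was lower in KO. The edgeR quasi-likelihood test across 18844 genes, with Benjamini-Hochberg adjustment at 0.05, called 0 of the 10 in KO against WT, where it called 0.00531% of all genes tested, which is the single gene Gm15446. At an unadjusted p under 0.05 it had 2 of the 10, Spry4 and Dusp6, beside 1078 genes over the whole table. DESeq2 called 1 of the 10, Spry4, where it called 0.0959% of all genes, and limma-voom called 0. For Spry4 these counts are a description only. Over the 9 genes other than Spry4, the fitted change was positive for 8, with a median log2 fold change of 0.29 (0.35 with Spry4), beside a median of 7e-04 and 50.1% positive over all genes tested. Every KO library lay above every WT library for 4 of these 9, Spry1, Spry2, Dusp6 and Etv4, where 7.44% of all genes tested did, and also for Spry4, which was selected for it. Every KO library lay below every WT library for 1, Fgfr3, where 7.56% of all genes did.

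Spry4, an inducible inhibitor of receptor tyrosine kinase signalling that lies on chromosome 18, read 11.9, 9.95 and 8.21 CPM in KO, 4.22, 4.84 and 4.71 CPM in Het and 6.20, 5.456 and 5.197 CPM in WT libraries. KO stood above both other genotypes without overlap, and Het stood below WT without overlap. The log2 fold change was 0.84 in KO against WT and 1.13 in KO against Het, the comparisons it was selected on. Leaving out any library kept it between 0.69 and 0.96 in KO against WT.
Spry1, an inhibitor of the same family that FGF signalling induces, read 25.4, 20.4 and 18.6 CPM in KO, 15, 9.44 and 18.01 CPM in Het and 15.1, 15.2 and 18.2 CPM in WT libraries. The lowest KO library, KO 3, exceeded the highest WT library by less than the spread within either genotype. Its log2 fold change in KO against WT was 0.41 (SE 0.23, adjusted p = 0.87).
Spry2, which also inhibits receptor signalling to ERK, read 14.5, 13.7 and 13.6 CPM in KO, 12.01, 10.1 and 13.1 CPM in Het and 12.1, 12.3 and 13.4 CPM in WT libraries. Its KO and WT libraries did not overlap either, but the log2 fold change was only 0.14 (SE 0.13, adjusted p = 0.908).
Spred1, which blocks RAF activation and recruits neurofibromin to the membrane, read 92.5, 78.2 and 89.5 CPM in KO, 71.9, 75.7 and 85.4 CPM in Het and 82.9, 77.4 and 72.5 CPM in WT libraries. The genotypes overlapped, and the log2 fold change in KO against WT was 0.16 (SE 0.10, adjusted p = 0.874).

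Dusp6, the ERK phosphatase in the cytoplasm, read 43.2, 34.4 and 25.7 CPM in KO, 16.4, 19.5 and 22.3 CPM in Het and 23.9, 23.4 and 16.5 CPM in WT libraries. The 3 KO libraries lay above all others, KO 3 only just. The log2 fold change in KO against WT was 0.69 (SE 0.22, 95% interval 0.20 to 1.19, adjusted p = 0.858), and it ranged from 0.49 to 0.87 when each library was left out in turn.

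Among the Etv factors, Etv4 read 7.24, 6.65 and 6.12 CPM in KO, 2.81, 1.99 and 6.13 CPM in Het and 4.29, 3.89 and 4.59 CPM in WT libraries. KO lay above WT without overlap, whereas Het 3 matched KO 3, and the log2 fold change in KO against WT was 0.65 (SE 0.36, adjusted p = 0.87).
Etv1, which also marks layer 5 projection neurons later in development, read 28.7, 39.9 and 50.6 CPM in KO, 17.97, 13.51 and 49.1 CPM in Het and 29.1, 25.7 and 26.8 CPM in WT libraries. The values were widest in KO and Het, KO 1 lay within the WT range, and the log2 fold change in KO against WT was 0.55 (SE 0.43, adjusted p = 0.898).
Etv5, an FGF-induced relative of Etv4, read 50.4, 44.99 and 43.1 CPM in KO, 15.1, 28.95 and 46.2 CPM in Het and 44.6, 37.2 and 31.7 CPM in WT libraries. KO and WT overlapped through WT 1, with a log2 fold change of 0.29 (SE 0.33, adjusted p = 0.918).

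Of the receptors, Fgfr1 read 180.2, 191.5 and 192 CPM in KO, 135, 185 and 178 CPM in Het and 183, 178 and 166 CPM in WT libraries. Apart from Het 1, all libraries lay close together, and the log2 fold change in KO against WT was 0.10 (SE 0.12, 95% interval -0.16 to 0.36, adjusted p = 0.918). Fgfr3, a receptor of ventricular zone progenitors, read 155, 208 and 197 CPM in KO, 147, 299.7 and 200.4 CPM in Het and 212, 244 and 209 CPM in WT libraries. It was the 1 gene with a negative log2 fold change, at -0.25 (SE 0.23, adjusted p = 0.908), with KO 2 at 207.9 CPM just under WT 3 at 208.9 CPM. Without KO 1 the KO against WT value was 0.27 for Spry1, 0.10 for Spred1 and -0.14 for Fgfr3. Without KO 3 it was 0.33 for Etv1, and without WT 3 it was 0.18 for Etv5 and 0.06 for Fgfr1.

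**Figure D2:**
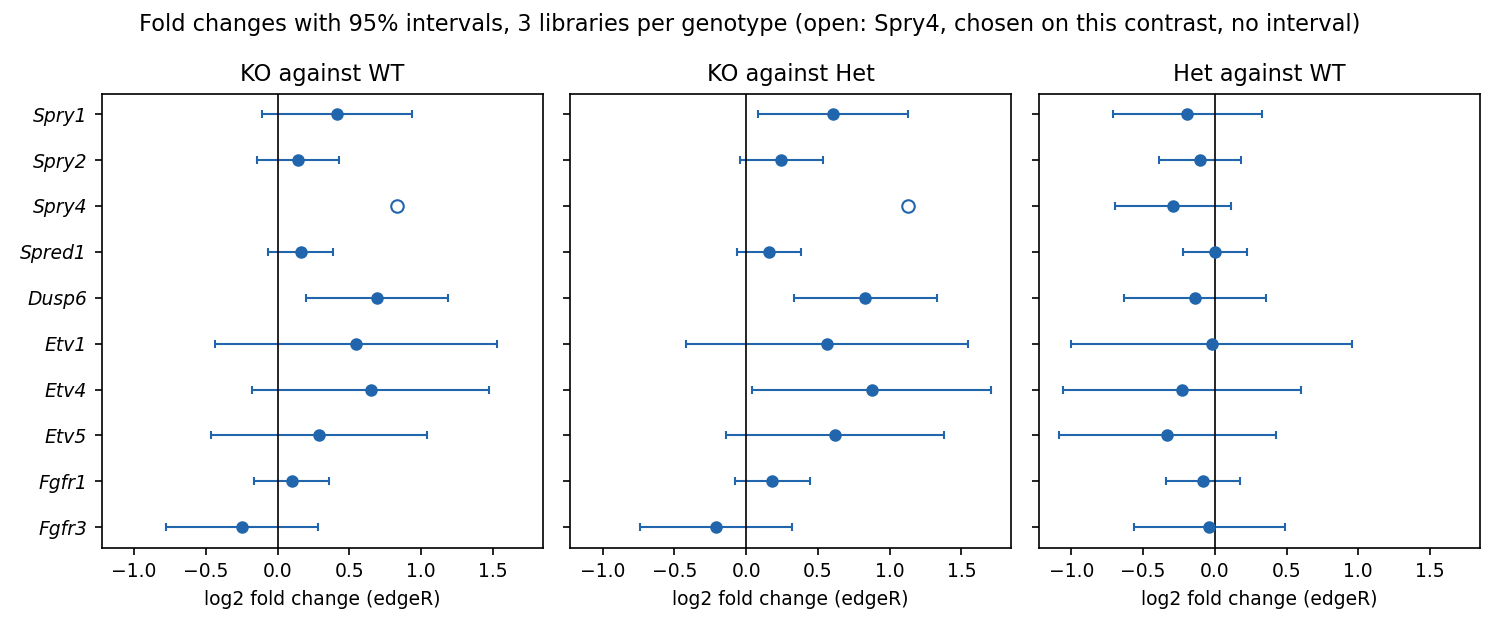
Log2 fold changes of the 10 genes in KO against WT, KO against Het and Het against WT, from 1 edgeR fit of 9 libraries. Points are fitted values, bars 95% intervals, and the open points are Spry4 in the comparisons it was selected on, with no interval. Apart from Spry4, the highest point in KO against WT is Dusp6 at 0.69, and in KO against Het it is Etv4 at 0.88.

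Library labels also carry a letter, D for 6 libraries and F for 3 (KO 3, Het 3 and WT 3), whose meaning the labels do not give. Within letter D (2 KO and 2 WT libraries), the KO minus WT difference in mean log2 CPM was 0.90 for Spry4, 0.70 for Dusp6, 0.76 for Etv4, 0.59 for Spry1 and 0.20 for Spry2. Within letter F (1 library each) it was 0.66 for Spry4, 0.64 for Dusp6, 0.41 for Etv4, 0.03 for Spry1 and 0.02 for Spry2. Spry4, Dusp6 and Etv4 were thus positive in both letters, while Spry1 and Spry2 were near 0 in letter F. By Y-linked and Xist counts, the letter F pair sets a female KO 3 against a male WT 3. Within females (1 library each) and males (2 libraries each), KO minus WT was 0.106 and 0.969 for Dusp6 and 0.402 and 1.026 for Spry4. It was 0.508 and 0.709 for Etv4, 0.306 and 0.455 for Spry1, and 0.160 and 0.132 for Spry2. The other genes read 0.31 and 0.91 for Etv1, 0.23 and 0.44 for Etv5, 0.09 and 0.30 for Spred1, 0.04 and 0.21 for Fgfr1 and -0.34 and -0.08 for Fgfr3 within D and F.

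Cell type markers differed between KO and WT as well. The 12 meningeal and fibroblast markers, none of them at 0, summed to 2925, 2606 and 1432 CPM in KO, 844, 1395 and 1216 CPM in Het and 1620, 1456 and 914 CPM in WT libraries, and all 12 had a positive fold change in KO against WT. The 14 endothelial and mural markers summed to 920, 797 and 488 CPM in KO, 418, 498 and 450.1 CPM in Het and 639, 551 and 382 CPM in WT libraries, with 13 of 14 positive. The 12 neuronal markers summed to 2729, 4013 and 5092 CPM in KO, 7268, 4303 and 5412 CPM in Het and 5097, 5215 and 5555 CPM in WT libraries, with 12 of 12 negative. The 11 microglial markers ranged over 53.6 to 83.2 CPM in KO, 46.6 to 50.1 CPM in Het and 47.5 to 62.5 CPM in WT, and the 11 erythroid markers over 3115 to 4646 CPM in KO, 2615 to 2944 CPM in Het and 2118 to 3033 CPM in WT. None of these marker genes passed the edgeR test, and DESeq2 called 1 of them, an erythroid marker, in KO against WT and 4 markers in KO against Het, of which 2 were meningeal, 1 was of the cortical hem and 1 was erythroid. In KO 3 the meningeal, endothelial and microglial sums lay within the WT range, while the erythroid sum (3115 CPM) was above the WT maximum of 3033 CPM and the neuronal sum (5092 CPM) below the WT minimum of 5097 CPM.

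The levels of Dusp6 followed several of these marker scores (the mean centred log2 CPM of a list) across libraries. Of 120 relations between the 10 genes and 12 marker lists over the 9 libraries, 6 passed with Benjamini-Hochberg adjustment over the 120. Of these, 4 were of Dusp6 and 2 of Spry4, and the 2 of Spry4 are a description because it was selected on its KO level. For Dusp6, r was 0.95 with the meningeal score (exact permutation p = 0.000347, adjusted 0.0139) and rho 0.867 (exact permutation p = 0.00451, adjusted 0.135), with r 0.815 without KO 1 and KO 2. With the microglial score r was 0.946 (exact permutation p = 0.00011, adjusted 0.0132) and rho 0.967 (exact permutation p = 0.000165, adjusted 0.0198), with r 0.853 without KO 1 and Het 1. With the endothelial score r was 0.93 (adjusted exact permutation p = 0.0155), and with the neuronal score it was -0.875 (adjusted exact permutation p = 0.037). The rho of these last scores was 0.85 (adjusted exact permutation p = 0.142) and -0.783 (adjusted exact permutation p = 0.159), and r without the 2 libraries farthest out was 0.722 and -0.629. The KO libraries stand apart on Spry4, whose 2 relations were with the meningeal and microglial scores, so its r is given in the 6 Het and WT libraries: 0.751 with the meningeal score (exact permutation p = 0.0833, adjusted 0.433) and 0.96 with the microglial score (exact permutation p = 0.00556, adjusted 0.133). In those 6 libraries 0 of the 120 relations passed, where a single relation cannot pass even at the smallest exact permutation p, 0.00139. Dusp6 with the meningeal score had r 0.858 there (exact permutation p = 0.0361, adjusted 0.31), and 0.26 without Het 1 and WT 3. Whether cell make-up sets the levels of Spry4, Dusp6 or the other genes was not tested.

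KO was next compared with Het cortex, using the same KO libraries as above, and the fitted level was higher in KO for 8 of the 9 genes other than Spry4. The edgeR test called 0 of the 10, where it called 0.00531% of all genes tested. At an unadjusted p under 0.05 it had 3 of these 9 (Spry1, Dusp6 and Etv4) and Spry4, beside 1459 genes over the whole table. DESeq2 called 1, Spry4, where it called 0.12% of all genes, and limma-voom called 0. Every KO library lay above every Het library for 3 of the 9, Spry1, Spry2 and Dusp6, and for the selected Spry4, where 6.05% of all genes did, and for 0 of the 10 did every KO library lie below, where 5.05% did. The median log2 fold change of the 9 was 0.57, beside -0.01 over all genes. Etv4 stood at 0.88 (SE 0.37), Dusp6 at 0.83 (SE 0.22), Etv5 at 0.62 (SE 0.33), Spry1 at 0.60 (SE 0.23) and Etv1 at 0.57 (SE 0.43), with adjusted p from 0.607 to 0.666. Spry2 stood at 0.25 (SE 0.13), Fgfr1 at 0.18 (SE 0.12), Spred1 at 0.16 (SE 0.10) and Fgfr3 at -0.21 (SE 0.23). Without Het 1 the value was 0.71 for Etv4, 0.72 for Dusp6, 0.29 for Etv5, 0.64 for Spry1, 0.34 for Etv1, 0.26 for Spry2, 0.05 for Fgfr1, 0.10 for Spred1 and -0.43 for Fgfr3. The values of Etv5, Etv1, Fgfr1, Spred1 and Fgfr3 thus moved by more than 1.5 times with that library. Without Het 2, Fgfr3 changed sign to 0.10, Etv4 was 0.58, Spry1 0.38, Spry2 0.15 and Etv1 0.25. Without Het 3 the values were larger, at 1.33 for Etv1, 1.47 for Etv4 and 1.06 for Etv5. Without KO 1 Spred1 was 0.10 and Fgfr3 -0.10, and without KO 3 Etv1 was 0.35. Within letter F, KO 3 and Het 3 were close for Etv4 (6.12 and 6.13 CPM) and Etv5 (43.1 and 46.2 CPM), and the KO minus Het difference in log2 CPM was also near 0 there for Etv1 (0.04), Spry1 (0.05), Spry2 (0.05) and Spred1 (0.07). In letter D it was 1.54 for Etv4, 1.18 for Etv5, 1.12 for Etv1, 0.94 for Spry1, 0.35 for Spry2 and 0.20 for Spred1. For Dusp6 it was 1.11 in letter D and 0.21 in letter F.

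Het cortex was compared with WT last. The edgeR test called 0 of the 10 genes and 0% of all genes tested. At an unadjusted p under 0.05 it had 0 of the 10 and 294 genes over the whole table, and DESeq2 called 0 of the 10 and 0.00533% of all genes. The fitted change was negative for 9 of the 10, with a median log2 fold change of -0.12 and a range from -0.33 for Etv5 to 0.00 for Spred1. Only Spry4 separated, with each Het library under each WT library (2.72% of all genes did so, and 2.46% had Het above WT), at a log2 fold change of -0.29 (SE 0.18, adjusted p = 0.999). Without Het 1 Spry4 stayed at -0.24, Etv5 was at -0.01, Etv1 at 0.20, Fgfr3 at 0.17 and Fgfr1 at 0.04. Without Het 2, Etv4 was at 0.07, Spry1 at 0.03, Etv1 at 0.30 and Fgfr3 at -0.35. Without Het 3 the values were further below 0, at -0.82 for Etv4, -0.79 for Etv1, -0.78 for Etv5, -0.40 for Spry1 and -0.24 for Dusp6. In letter D alone the Het libraries were the lower ones for Spred1, Dusp6, Etv1, Etv4 and Etv5, and in letter F Het 3 was the higher one for each of these 5. The Het minus WT difference in mean log2 CPM was -0.96 in letter D and 0.54 in letter F for Etv5, -0.81 and 0.87 for Etv1, -0.78 and 0.41 for Etv4, -0.40 and 0.43 for Dusp6, and -0.12 and 0.24 for Spred1.

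The lowest values were split between 2 Het libraries. Spry1, Spry2, Etv1 and Etv4 were lowest of all 9 libraries in Het 2, and Spry4, Spred1, Dusp6, Etv5, Fgfr1 and Fgfr3 were lowest in Het 1. Fgfr3 was at the same time highest in Het 2. KO 1 held the highest level of Spry1, Spry2, Spry4, Spred1, Dusp6, Etv4 and Etv5, and KO 3 that of Etv1 and Fgfr1. The ganglionic eminence markers were low in both KO 1 (73.6 CPM) and Het 2 (68.3 CPM), the libraries where Spry1 and Spry2 were highest and lowest. Over all 9 libraries, r with the ganglionic eminence score was 0.838 for Etv1, 0.627 for Etv4, 0.507 for Spry2 and 0.413 for Spry1. In the 6 Het and WT libraries it was 0.969, 0.994, 0.876 and 0.863 (adjusted exact permutation p from 0.125 to 0.152). None of these passed. In the 6 libraries the exact permutation p of Etv4 was 0.00139, the smallest that 6 libraries can give. A single relation at that p cannot pass over 120. Whether ganglionic eminence content sets these levels was not tested.

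Whether the genes moved together was tested for all 45 pairs over the 9 libraries, with Pearson's r of log2 CPM, exact two-sided permutation tests and Benjamini-Hochberg adjustment over the 45. The r was positive for 38 pairs, with a median of 0.59 and a range from -0.68 to 0.99, and 5 pairs passed at 0.05. These values include pairs with Spry4, which are a description because Spry4 was selected on its KO level. Spry1 and Spry2 ranked the 9 libraries in the same order: r was 0.988 (exact permutation p = 2.76e-06, adjusted 0.000124) and rho was 1.0 (exact permutation p = 5.51e-06, adjusted 0.000248, the smallest p that 9 libraries can give for rho). Without the 2 libraries farthest out, KO 1 and Het 2, r was 0.975. Etv4 followed both: with Spry2 r was 0.94 (exact permutation p = 0.000149, adjusted 0.0022) and rho 0.933 (exact permutation p = 0.00075, adjusted 0.00843), and with Spry1 r was 0.926 (exact permutation p = 3.31e-05, adjusted 0.000744) and rho 0.933 (exact permutation p = 0.00075, adjusted 0.00843). Without KO 1 and Het 2 these were 0.856 and 0.861. Etv1 followed Etv4, with r 0.878 (exact permutation p = 0.00169, adjusted 0.0152), rho 0.733 (exact permutation p = 0.0311, adjusted 0.0875) and r 0.784 without KO 3 and Het 2.

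**Figure D3:**
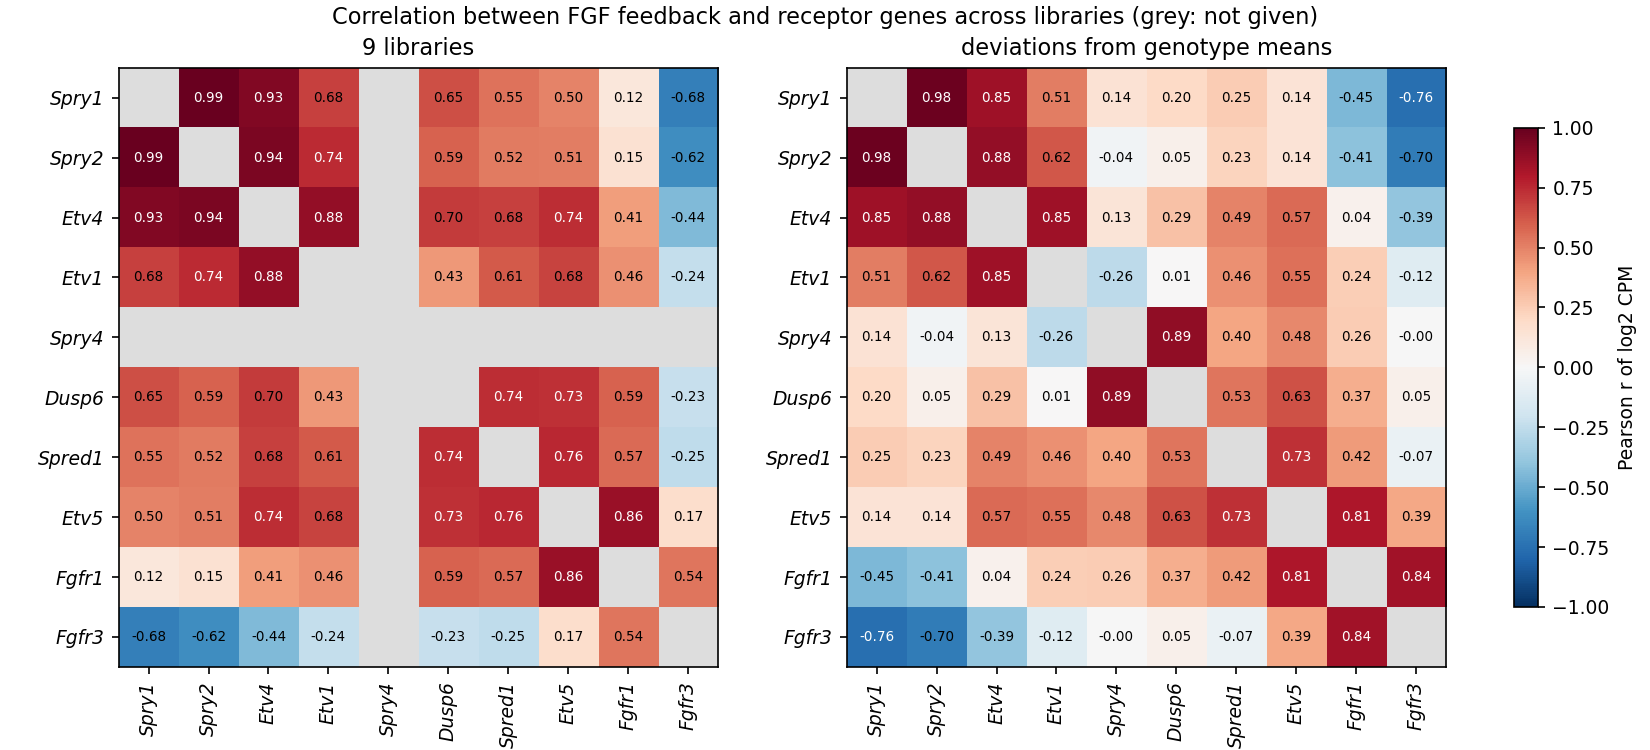
Pearson's r of log2 CPM for each pair of genes, over the 9 libraries on the left and over deviations from the genotype means on the right, where the same 9 libraries enter. Red is positive and blue negative. Pairs with Spry4 are not given on the left because the KO libraries stand apart. Spry1, Spry2 and Etv4 form the darkest block on both sides, and Fgfr3 is negative with Spry1 at -0.68 and -0.76, neither of which passed. Without the libraries farthest out, the first is 0.16 (KO 1 and Het 2 left out) and the second -0.71 (Het 2 and Het 3 left out). With only Het 1 left out, the first is -0.947 and passed (adjusted exact permutation p = 0.0147).

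The fifth pair was Spry4 with Dusp6. The KO libraries stand apart on Spry4, which was selected on its KO level. The pass of this pair is therefore a description with no test, and no r over all 9 is given. Within the 6 Het and WT libraries r was 0.645 (exact permutation p = 0.165, adjusted 0.438) and rho 0.771 (exact permutation p = 0.103, adjusted 0.42), and without Het 1 and WT 1 r was 0.018. Taken as deviations from the genotype means over 9 libraries, r was 0.888 (permutation p = 0.000978, adjusted 0.022), and 0.77 without KO 1 and KO 3. The rho was 0.833 (permutation p = 0.00827, adjusted 0.121). All 9 deviations were permuted freely, although those of a genotype are tied by its mean. These p-values are therefore not exact and may be too small. Both genes were highest in KO 1 and lowest in KO 3 among the KO libraries, as was the meningeal marker sum. In those 6 Het and WT libraries r for Spry1 and Spry2 was 0.995 (exact permutation p = 0.00139, adjusted 0.0625). That p is the smallest that 6 libraries can give, and a single pair at it cannot pass over 45. There, 0 of the 45 pairs passed, with 9 at an unadjusted p under 0.05.

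After the genotype means were taken out, the median r of the 45 pairs was 0.26. By adjusted permutation p-values, which may be too small here, 2 pairs were under 0.05, Spry4 with Dusp6 and Spry1 with Spry2. The second had r 0.979 (permutation p = 0.000121, adjusted 0.00546). Within the 6 libraries of letter D, r was 0.996 for Spry1 with Spry2, 0.959 for Spry2 with Etv4 and 0.947 for Spry1 with Etv4. These 3 passed, and the fourth pair that did was Spry4 with Dusp6. Its pass is a description with no test, and no r is given, because the KO libraries again stand apart. Letter F holds 3 libraries, too few for a value. Without Het 1, 9 pairs passed, and without Het 2, 2 did, in each case with Spry4 and Dusp6 among them, again as a description. Those without Het 1 included negative pairs of Fgfr3, with Spry1 (r -0.947), Spry2 (-0.916), Etv4 (-0.907) and Etv5 (-0.804). Their adjusted exact permutation p ran from 0.0067 to 0.0458, and by rho only the pair with Etv4 passed. With the 2 farthest libraries also left out, these r were -0.642, -0.628, -0.761 and -0.892. Spry1 with Spry2 kept an r of 0.989 without Het 1 and 0.969 without Het 2. Each library's mix of cell types enters the level of every gene in it, and its part in these correlations was not tested.

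**Figure D4:**
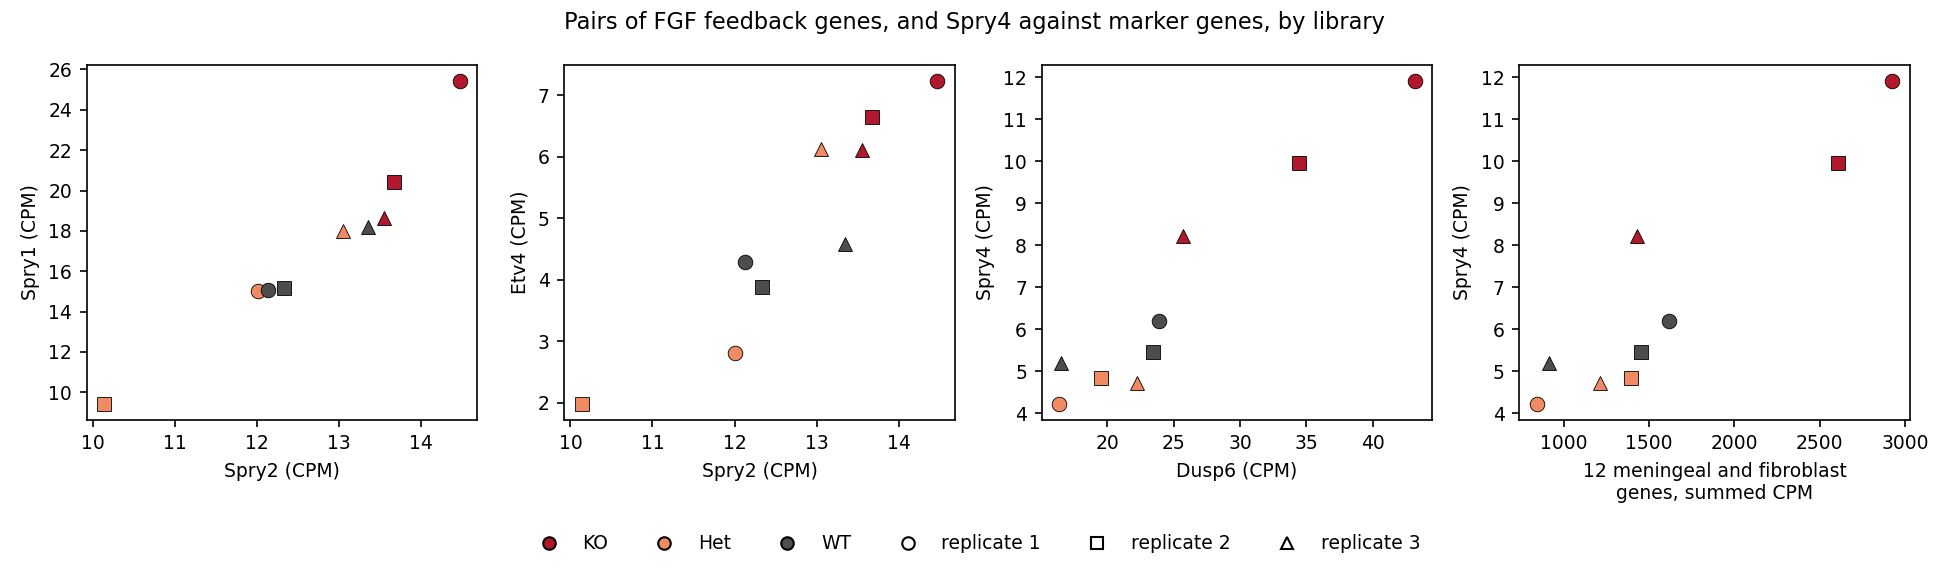
Each panel plots the 9 libraries as points coloured by genotype: Spry1 against Spry2, Etv4 against Spry2, Spry4 against Dusp6, and Spry4 against the summed CPM of 12 meningeal and fibroblast markers, all in CPM. Spry1 and Spry2 order all 9 libraries alike, with KO 1 highest at 25.4 and 14.5 CPM and Het 2 lowest at 9.44 and 10.1 CPM, and KO 3 lies above the Het and WT libraries on Spry4 at 8.21 CPM with a marker sum of 1432 CPM.

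Over the 15288 genes with a mean of at least 1 CPM, the genes whose log2 CPM was most like that of Spry4 over the 9 libraries were Trim47 (r 0.973), Marveld1 (0.971), Rcsd1 (0.965), Oaf (0.965) and Isoc1 (0.963), given as a description because Spry4 was selected on its KO level. Dusp6 came at rank 37 in this order, and the next of the set were Etv4 at 1260, Spry1 at 1353, Spry2 at 1635, Spred1 at 1731 and Etv5 at 1772. Fgfr1 stood at 2568, Etv1 at 3679 and Fgfr3 at 9960. The order includes the KO libraries that Spry4 was selected on. For Etv5, a readout of FGF signalling, the most alike were Gm11457 (r 0.974), Spred2 (0.971), Ifi35 (0.969), Lin9 (0.968) and Herc6 (0.967), with Fgfr1 at rank 354. This order is given only for all 9 libraries, and Etv5 was lowest in Het 1. For Etv5 with Fgfr1, r was 0.865 and rho 0.3 over the 9 libraries, and r was 0.352 without Het 1. Spred2, a Spred1 relative, read 68.9, 63.4 and 63.0 CPM in KO, 42.1, 55.2 and 61.2 CPM in Het and 64.5, 59.3 and 51.7 CPM in WT libraries. Like Etv5, it was lowest in Het 1.

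The rest of the pathway was read from 8 lists of 98 genes, of which 86 were tested. The edgeR test called 0 of the 86 in each comparison. At an unadjusted p under 0.05 it had 13 in KO against WT (8 higher, 5 lower), 14 in KO against Het (13 higher, 1 lower) and 1 in Het against WT, where 5.71%, 7.72% and 1.56% of all genes tested had such a p. DESeq2 called 0 of them in each comparison, and so did limma-voom. The values that follow are KO against WT, with fold changes and their medians in log2.

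Among 11 other feedback inhibitors, 7 had a positive and 4 a negative log2 fold change, with a median of 0.16. Every KO library lay above every WT library for 4, where 7.44% of all genes did. Il17rd, which encodes the membrane inhibitor Sef, read 48.7, 48.3 and 44.3 CPM in KO, 30.7, 18.3 and 39.5 CPM in Het and 30.8, 29.2 and 26.5 CPM in WT libraries, a log2 fold change of 0.71 (SE 0.23, adjusted p = 0.858). Like Etv4 and Spry1, it was lowest in Het 2. Sulf2, an extracellular sulfatase that trims the heparan sulfate FGFs need, stood at 0.53 (SE 0.20, adjusted p = 0.858) with KO above WT, and Dusp9 at 0.55. Of the other Sprouty and Spred genes, Spred2 stood at 0.15 and Spred3 at 0.01, and Spry3 was not analysed here.

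Secreted FGF ligands were low, and 10 of 18 passed the filter, with a median of 0.19 and a range from -0.72 to 1.19. Fgf17, a ligand of the anterior midline, read 14.1, 10.7 and 7.93 CPM in KO, 2.69, 0.58 and 6.79 CPM in Het and 4.61, 4.32 and 8.53 CPM in WT libraries, a log2 fold change of 0.91 (SE 0.69, adjusted p = 0.894). WT 3 lay above KO 3, so the genotypes overlapped. Fgf8 read 1.51, 1.48 and 0.77 CPM in KO, 0.43, 0 and 0.48 CPM in Het and 0.58, 0.26 and 1.01 CPM in WT, and Fgf3 stood below 2.1 CPM in every library. The log2 fold changes of Fgf8 and Fgf3 were 1.02 and 1.19. All 3 ligands were lowest in Het 2, where Spry1, Spry2, Etv1 and Etv4 were lowest too. Among the other receptors, Fgfr2 read 97, 114 and 103 CPM in KO and 93, 116 and 102 CPM in WT, a log2 fold change of 0.01, with Fgfr4 at -0.37 and Kl at -0.11.

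The 22 adaptors and kinases between receptor and ERK had a median of 0.04, with 13 positive and 9 negative. Shc1 stood at 0.45, Rps6ka1 at 0.21 and Hras at -0.22. For Hras every KO library lay below every WT library, where 7.56% of all genes did. The 10 tested ERK-responsive early genes had a median of 0.17, with 8 positive. Egr1 stood at 0.77 (SE 0.40), Ccnd1 at 0.40 with KO above WT, where 7.44% of all genes did so, and Nr4a1 at 0.29. Of 6 cortical patterning factors that FGF signalling is known to regulate, Nr2f2 stood at -0.83 (SE 0.30), Nr2f1 at -0.47 (SE 0.19) and Sp8 at 0.38. For Nr2f2 and Nr2f1 every KO library lay below every WT library, again beside 7.56% of all genes. Nr2f1 read 163, 254 and 258 CPM in KO, 231, 319 and 266 CPM in Het and 276, 314 and 345 CPM in WT libraries. For comparison, 22 genes of other receptor tyrosine kinases and their ligands had a median of 0.33, with 15 positive, and Hgf at 0.83, Egfr at 0.78 and Met at -0.76. The median of the FGF genes without Spry4, 0.29, was close to that of this list. Among others, the list holds the endothelial receptors Kdr and Flt1 and the mural receptor Pdgfrb. Whether cell make-up sets either median was not tested.

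**Figure D5:**
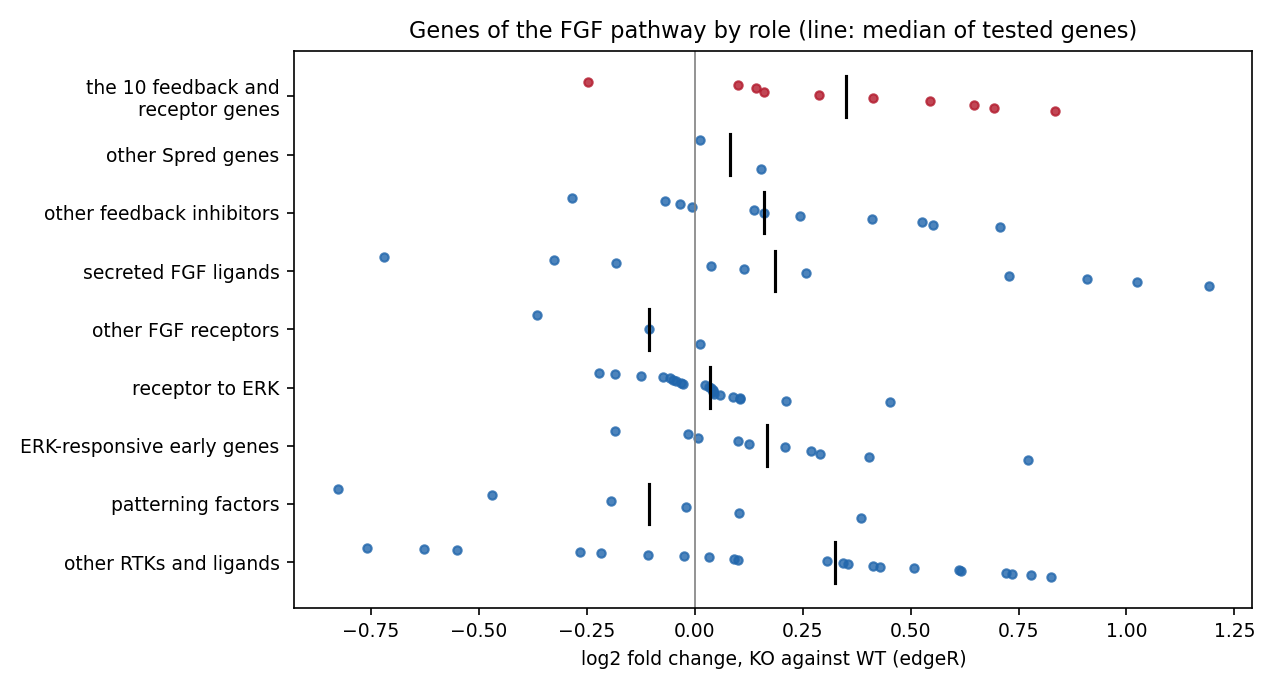
Log2 fold changes in KO against WT of the 10 FGF feedback and receptor genes (red) and of the tested genes of the 8 pathway lists (blue), with a line at each median. The medians run from -0.11 for the other FGF receptors and the patterning factors to 0.35 for the 10 genes, and adaptors and kinases from receptor to ERK lie closest to 0.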

How the data were processed

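The deposited table holds whole-number counts per gene for 9 bulk libraries, with no normalization by the authors. Per the submitters' processing notes, FastQC 0.11.9, STAR 25.2b and StringTie 2.2.1 were used with build mm10; the counting tool, annotation and strand setting are not given in the sources used here. Gene IDs were paired with symbols and positions through GENCODE M21 (55154 of 55335). Genes were filtered with filterByExpr (18844 tested, 99.95% of counts), scaled by TMM and fitted in 1 edgeR 4.0.16 quasi-likelihood model of 3 genotypes (R 4.3.3), adjusted over all genes tested. DESeq2 1.42.0 and limma-voom (limma 3.58.1) were alternatives. CPM is TMM-scaled, and log2 CPM for correlations used a prior count of 2. The common biological coefficient of variation was 28.2%. Counts were simulated for KO against WT over 18512 genes, with 50 genes changed at each fold. The test called 14% of genes changed 1.5-fold, 38% at 2-fold, 70% at 4-fold and 92% at 8-fold. It made 112 calls there, beside 1 in the data. The adjustment is more lenient when more genes are called, so these rates may be too high for the data. No pair of libraries agreed within sampling noise: the mean chi-square per gene was 9.61 or more. The 10 genes and all lists were chosen with earlier results of these data known. Named genes of each list are those called and the 3 with the largest absolute fold change in KO against WT; Spry4 and Etv5 each have the 5 most alike genes. Alternatives included each library left out, other scalings and filters, a replicate block, and the letter or sex as a factor.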

Additional observations from a re-analysis of the deposited data

Results flagged for a closer look

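Embryo sex, read from Y-linked and Xist counts, was female for KO 3, Het 1, Het 3 and WT 1 and male for the other libraries. In 3 cases every male library moved one way and every female library the other way between genotypes. For Etv5, KO minus WT in log2 CPM was -0.052 in females (1 library each) and 0.47 in males (2 libraries each). For Fgfr1, Het minus WT was -0.24 in females (2 Het, 1 WT) and 0.11 in males (1 Het, 2 WT). For Fgfr3, Het minus WT was -0.30 in females and 0.41 in males, with the same libraries. These differences between the sexes were not tested, and Het 1, the library with high thalamic markers, is one of the 2 female Het libraries.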

How the results depend on the processing

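In KO against WT the fold changes of all 10 genes kept their sign under 21 of 21 alternatives. Over the 3 comparisons, 615 of 630 values of the 10 genes moved by less than their SE, as did 499 of 504 list medians by less than the spread of their list. The number of genes called over the whole table was 1 in KO against WT and in KO against Het. It was 18 and 22 with DESeq2, which also called 1 gene in Het against WT, where edgeR called 0, and called 1 of the 10 FGF genes (Spry4) in KO against WT and in KO against Het. It was 0 in both KO comparisons with the letter as a block, with sex as a factor and without Het 1 and KO 1 together, and 0 in KO against Het with limma-voom and with 2 genotypes only. Leaving out 1 library gave 0 to 1 in both. The replicate block gave 0 in both and 0 of the 10 genes. Deviations of same-numbered libraries had r from -0.27 to 0.269, and those of number 3, all of letter F, were positive (0.269, 0.152 and 0.082). KO 3 and Het 3 also had the lowest mean chi-square of any pair, 9.61. Deviations from a mean of 3 libraries are tied to each other, so whether same-numbered libraries share an origin cannot be told. Of 45 pairs, 5 correlations passed. Pairs with Spry4 enter this and the following counts, and are a description only where KO libraries are included. The count was 9 without Het 1, with negative pairs of Fgfr3 among them. It was 2 for deviations from genotype means, where the permutation p-values may be too small. Among settings added after seeing the data, it was 2 without Het 2, 0 in the 6 Het and WT libraries and 4 in the letter D libraries. With 6 libraries a single pair cannot pass even at the smallest possible p. The cause of these changes, including the number of libraries, was not tested. Relations with marker scores were also added after seeing the data. With 3 libraries a genotype and 177 to 535 counts for Spry4, changes of 2-fold or less were mostly below what the test calls. In the simulation it called 70% of 4-fold changes, so larger changes can be missed too.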
